A study of Homo sapiens with 2 samples.

Results

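Cholesterol and fatty acid synthesis genes were examined for SOX9 at their promoters in HT-29, a cell line from a human colorectal adenocarcinoma. The group holds 31 of the 20136 protein-coding genes of the annotation. They encode the enzymes that turn acetyl-CoA into cholesterol and into fatty acids, together with the sterol sensors and transcription factors that control them. The genes were chosen by name from this pathway, with SOX9 peak results of the same libraries already known, and are described through the peaks whose summit lay within 1 kb of a transcription start site (TSS). ChIP-seq was done once with an antibody to SOX9, a transcription factor of intestinal crypt cells, and input DNA of the same line served as the control, so that there was 1 SOX9 library and 1 input library. Both came from HT29 cells cultured overnight in serum-containing medium, with no further treatment or genetic change named in the labels, and fixed with formaldehyde. Each library held 12320108 tags after the authors had downsampled the input. With 1 library per condition no value has a replicate error, no difference between genes was tested, and the intervals given are for counting error only.

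Cells make cholesterol from acetyl-CoA through mevalonate, the isoprenoid diphosphates, squalene and lanosterol. When sterols are scarce, SCAP carries the sterol regulatory element binding proteins (SREBPs) from the endoplasmic reticulum to the Golgi for cleavage, and the released factors enter the nucleus and switch on the genes of both pathways. When sterols are plentiful, INSIG proteins hold SCAP back. SREBPs are weak activators alone. On many of these promoters they are known to act from sterol regulatory elements that lie beside sites for Sp1, which binds GC boxes, or for NF-Y, a trimeric factor that binds CCAAT.

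Sequences under the summits are shown for members with CCAAT or an SRE-like string near the summit. They were read from GRCh37 (hg19) on the strand of the gene, 5′ to 3′, and positions are relative to the TSS nearest to the summit, with negative values upstream. The first set holds the CCAAT nearest to the summit for 5 of the members with the most tags and a CCAAT within 100 bp of it. Capitals mark CCAAT or, on the other strand, ATTGG. The HMGCS1 window (chr5:43313824-43313918, −304 to −210 bp) had 1 copy alone and, 28 bp from it centre to centre, an overlapping pair, CCAATTGG. The FASN window (chr17:80056676-80056770, −600 to −506 bp) had 2 copies.
HMGCS1: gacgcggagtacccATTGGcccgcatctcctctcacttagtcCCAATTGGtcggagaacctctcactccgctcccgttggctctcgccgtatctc
FASN: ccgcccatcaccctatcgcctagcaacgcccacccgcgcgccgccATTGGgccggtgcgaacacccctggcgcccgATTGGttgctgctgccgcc
ACACA (chr17:35716216-35716310, −246 to −152 bp): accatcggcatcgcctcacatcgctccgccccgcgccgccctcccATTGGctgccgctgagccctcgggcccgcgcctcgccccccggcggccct
DHCR7 (chr11:71159484-71159578, −97 to −3 bp): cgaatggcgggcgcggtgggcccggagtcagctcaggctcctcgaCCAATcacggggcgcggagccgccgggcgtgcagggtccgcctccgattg
INSIG1 (chr7:155089373-155089467, −113 to −19 bp): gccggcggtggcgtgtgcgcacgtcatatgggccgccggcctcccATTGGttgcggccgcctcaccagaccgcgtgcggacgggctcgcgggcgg

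A second set, from 3 members, holds the SRE-like string TCACNCCA, a core of the sterol regulatory element, within 100 bp of the summit, and is shown because it lets the distance to CCAAT be read. Capitals mark TCACNCCA and CCAAT or ATTGG. In the MSMO1 window (chr4:166248620-166248717, −199 to −102 bp) the SRE-like string lay between 2 copies of CCAAT in opposite orientation, 9 bases from the nearer one. The HMGCS1 window (chr5:43313721-43313818, −204 to −107 bp) continues the one above. The PMVK window (chr1:154909568-154909665, −470 to −373 bp) had no CCAAT.
MSMO1: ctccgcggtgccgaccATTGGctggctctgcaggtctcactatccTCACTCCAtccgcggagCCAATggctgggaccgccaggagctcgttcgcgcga
HMGCS1: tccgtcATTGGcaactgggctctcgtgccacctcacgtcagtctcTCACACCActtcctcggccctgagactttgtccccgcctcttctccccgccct
PMVK: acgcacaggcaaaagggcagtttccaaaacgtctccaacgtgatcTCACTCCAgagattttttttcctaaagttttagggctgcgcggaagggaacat

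SOX9 peaks were found at the promoters of 27 of the 31 genes (87.1%). Of all protein-coding genes, the members included, 44.9% had a summit within 1 kb of a TSS. All 7 genes of the mevalonate steps had such a peak, as did 8 of 9 genes from squalene to cholesterol, all 5 genes of SREBP control, the sterol carrier gene STARD4 and 6 of 9 fatty acid genes. Where a gene had several promoter peaks, the one with the most tags is described, and the 27 genes had 27 different peaks. The tag count is the number of SOX9 tags in the interval. Its median over the members was 73 (quartiles 58 and 108), compared with 59 (41 and 86) over the 9033 protein-coding genes with a promoter peak. Of the members, 19 lay above that median of 59 and 10 above the upper quartile of 86. The range was wide, from 18 tags at LSS to 353 at PMVK. Median tags were 96 in the mevalonate steps, 79 from squalene to cholesterol, 58 in SREBP control and 63 in the fatty acid steps.

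The fold enrichment given by MACS, a ratio of SOX9 tags to the number expected from the local input, had a median of 13.57 over the members and 10.12 over all promoter peaks. The signal counts the tags, after extension to 150 bp, that cover each 32-nt bin. Its highest SOX9 value in an interval had a median of 33 at the members and 23 at all promoter peaks. The median of the highest input signal was 6 in both. The ratio of the highest signals had a median of 6.0 (3.82 to 8.69) at the members and 4.0 (3.0 to 6.0) in general. The medians were closer when the signal was summed over the interval (4.68 and 3.85) or taken in the bin of the summit (8.8 and 7.67). The MACS empirical FDR was 0% for 25 of the 27 peaks and 0.01% for LSS and SCAP.

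Among the mevalonate genes, SOX9 tags were most frequent at PMVK and HMGCS1. PMVK, which encodes phosphomevalonate kinase, had 353 tags (95% interval 317 to 392) at chr1:154908725-154910130, more than 99.5% of the promoter peaks of protein-coding genes. Its fold enrichment was 53.87, and the SOX9 signal rose to 123 over an input signal of 7. The summit lay at −441 bp, among the farthest from a TSS in the group, in a window of 52.2% GC that held no CCAAT. HMGCS1 encodes the cytosolic HMG-CoA synthase. Its peak (chr5:43313113-43314173) had 196 tags (170 to 225), a fold enrichment of 30.42, a SOX9 signal of 118 against an input signal of 7, and a summit at −227 bp. Within 100 bp of the summit it held 4 copies of CCAAT, of which 2 overlap.

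The other mevalonate genes had between 57 and 119 tags. IDI1, the isopentenyl diphosphate isomerase gene (chr10:1094403-1095787), had 119 tags (98.6 to 142), a SOX9 signal of 42 against 6, and 3 copies of CCAAT. Its summit at −69 bp also lay within 1 kb of a TSS of WDR37, so the peak cannot be given to either gene alone. ACAT2, whose product makes acetoacetyl-CoA at the entry of the pathway (chr6:160182734-160183625), had 96 tags (77.8 to 117), a signal of 64 against 6, and 3 copies of CCAAT, at a summit (−89 bp) that it shares with SOD2. MVD encodes the decarboxylase of the pathway. It had 84 tags (67.0 to 104) at chr16:88729395-88730017 with a signal of 54 against 7, and the nearest of its 3 copies of CCAAT lay 3 bp from the summit at −51 bp. MVK, the mevalonate kinase gene (chr12:110010659-110011913), had 81 tags (64.3 to 101) and a signal of 24 against 6, with 1 CCAAT. Its summit at −32 bp is shared with MMAB, the divergent neighbour. FDPS, the farnesyl diphosphate synthase gene (chr1:155278149-155278904), was the weakest of the step, with 57 tags (43.2 to 73.9), a fold enrichment of 7.42 and a signal of 28 against 9. Its 3 copies of CCAAT surrounded a summit at 14 bp downstream of the TSS.

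Between squalene and cholesterol, the first 2 genes differed in tags and in input DNA. SQLE encodes squalene epoxidase. Its peak had 320 tags (286 to 357) at chr8:126009289-126012459, but a fold enrichment of only 5.62, since the input signal reached 16 under a SOX9 signal of 51. FDFT1, the squalene synthase gene (chr8:11659694-11660380), had 71 tags (55.5 to 89.6), yet 42.06-fold enrichment and a signal of 57 against 3. Both signals at the summit were thus nearly the same height, and the peaks differed in the input beneath them and in width (3171 and 687 bp). FDFT1 held 4 copies of CCAAT, an SRE-like string and the one Motif 2 string of the members, SQLE 2 copies of CCAAT.

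Farther down the pathway, DHCR7, which encodes the reductase of the final step (chr11:71159092-71160053), had 110 tags (90.4 to 133), a fold enrichment of 20.36 and a signal of 60 against 7. A CCAAT lay 1 bp from its summit at −49 bp. CYP51A1, the lanosterol demethylase gene (chr7:91762945-91764565), had nearly as many tags, 106 (86.8 to 128), but a signal of only 20 against 9 and a fold enrichment of 5.48, and no CCAAT near the summit at −84 bp. Tags of CYP51A1 were spread over 1621 bp, those of DHCR7 over 962 bp. SC5D, a sterol desaturase gene (chr11:121163043-121164106), had 85 tags (67.9 to 105), a highest signal of 39 against 6 and a summit at 26 bp. MSMO1 encodes the methylsterol oxidase. It had 73 tags (57.2 to 91.8) at chr4:166248340-166249087, a fold enrichment of 22.44, a signal of 44 against 5 and a summit at −94 bp amid 4 copies of CCAAT. TM7SF2, a sterol reductase gene (chr11:64879726-64880963), had 69 tags (53.7 to 87.3), a signal of 26 against 6 and a summit at −1 bp without CCAAT. LSS, the lanosterol synthase gene (chr21:47648556-47649019), had the fewest tags of all members, 18 (10.7 to 28.4), more than only 1.7% of the promoter peaks of protein-coding genes. The signal there was 15 over an input signal of 1, so the fold enrichment was still 14.88.

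The genes of SREBP control had fewer tags, by their median, than those of the sterol enzymes, with INSIG1 above the rest. INSIG1 encodes an anchor of SCAP and is itself a known SREBP target. It had 106 tags (86.8 to 128) at chr7:155088533-155089914, a fold enrichment of 20.54 and a signal of 46 against 7, with a CCAAT 18 bp from the summit at −84 bp. A second INSIG1 promoter peak, at 487 bp, had 67 tags, a fold enrichment of 21.91, a signal of 47 against 5 and 2 copies of CCAAT. SREBF2, which encodes the SREBP best known for sterol genes (chr22:42228541-42229488), had 60 tags (45.8 to 77.2) and a signal of 22 against 4, with 1 CCAAT 82 bp from the summit at −22 bp. INSIG2 (chr2:118845435-118846279) had 58 tags (44 to 75) and a signal of 33 against 4, and held 2 ETS cores in place of CCAAT. SREBF1, whose product drives fatty acid genes, had 3 promoter peaks. The strongest of them (chr17:17739373-17740348) had 40 tags (28.6 to 54.5) and a signal of 12 against 2. Its summit, 608 bp downstream of the nearest TSS, was the farthest from a TSS in the group. SCAP (chr3:47517012-47517803) had 36 tags (25.2 to 49.8), a signal of 13 against 7 and the lowest MACS score among the members, 82.58, on the scale of the negative log10 p times 10, on which the authors' limit is 70.

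STARD4, which encodes a sterol transfer protein, had 65 tags (50.2 to 82.8) at chr5:110847807-110848694, a signal of 31 against 6 and 2 copies of CCAAT near its summit at −45 bp. In the fatty acid branch, FASN and ACACA stood above the rest. FASN encodes fatty acid synthase. It had 164 tags (140 to 191) at chr17:80055873-80057301, a fold enrichment of 30.26 and a signal of 83 against 7, with 2 copies of CCAAT on either side of the summit at −546 bp. ACACA encodes acetyl-CoA carboxylase, which makes the malonyl-CoA that FASN uses. It had 147 tags (124 to 173) at chr17:35714956-35716978 with a lower fold enrichment, 8.44, over an input signal of 11. A second ACACA promoter peak, at −374 bp, had 97 tags, a fold enrichment of 10.2 and no CCAAT. Upstream of these enzymes in the pathway, ACLY, the ATP citrate lyase gene (chr17:40074815-40075520), had 40 tags (28.6 to 54.5) and a signal of 19 against 4. ACSS2, which encodes an acetyl-CoA synthetase (chr20:33463643-33464618), had 58 tags (44 to 75), a highest signal of 15 against 6 and a summit exactly at a TSS. The desaturase genes SCD and FADS2 lay on either side of the median of all promoter peaks. SCD (chr10:102106457-102107297) had 48 tags (35.4 to 63.6), a signal of 22 against 5 and 2 copies of CCAAT. FADS2 (chr11:61559523-61560651) had 68 tags (52.8 to 86.2), a signal of 20 against 7 and no CCAAT, at a summit also within 1 kb of TSSs of FEN1 and TMEM258. The peak thus cannot be given to FADS2 alone.

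No promoter peak was called at HSD17B7, ELOVL6, FADS1 and LPIN1. At the TSSs of HSD17B7, a sterol reductase gene and the only cholesterol enzyme gene of the list without a peak, the SOX9 signal did not exceed 3 extended tags per bin, with 2 in the input, and the nearest summit was 229022 bp away. Its 200 bases before the gene start nevertheless held 1 CCAAT, whereas those of the other three held none. At ELOVL6, a fatty acid elongase gene, the signal reached 18 against 8 in the input without a call. It had 3 peaks inside the gene instead, the nearest summit 25341 bp from a TSS. At FADS1, a desaturase gene beside FADS2, the signal reached 12 against 6, and the nearest peak was the one of FADS2. LPIN1, which encodes a phosphatidic acid phosphatase, was the member nearest to the limit from outside: its nearest peak, of 49 tags and 20.41-fold enrichment, had the summit 2347 bp from the nearest TSS. Of the members inside it, SREBF1 (608 bp) and FASN (−546 bp) had the summits farthest from a TSS, so that none was close to the limit of 1 kb.

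Summits lay mainly upstream of the TSS. The median position was −84 bp (quartiles −148.5 and −38.5 bp) for the members and −49 bp (−119 and 1 bp) for all promoter peaks. The summit was upstream at 23 of 27 members (85.2%), against 74.0% in general. It lay on a TSS or in the 200 bp before it at 21 (77.8%), against 61.4%. The members whose summit was not upstream were FDPS, SC5D and SREBF1, downstream, and ACSS2, on the TSS itself. Of the 6 members with more than 110 tags, PMVK, FASN, HMGCS1, ACACA and SQLE had summits beyond −150 bp, and IDI1 did not. The windows of 100 bp to either side of the summits had a median GC content of 70.6%, and 67.7% for all promoter peaks.

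CCAAT was found on either strand within 100 bp of the summit at 19 of 27 members (70.4%, Wilson 95% interval 51.5 to 84.1%), compared with 32.2% of all promoter peaks. Motif 1, the longer NF-Y string with 2 purines before CCAAT and G or C followed by a purine after it, was present at 17 members (63.0%, 44.2 to 78.5%) and in 16.1% of all promoter peaks. Every Motif 1 contains a CCAAT, so both counts overlap. At 14 members there were 2 or more copies of CCAAT that do not overlap each other, against 14.9% of all promoter peaks, and at 6 there were 3 or more, against 5.29%. Those 6 were ACAT2, HMGCS1, MVD, FDPS, FDFT1 and MSMO1. When the 4 peaks shared with another protein-coding gene were set aside, 16 of 23 members had CCAAT. The share of all promoter peaks was not recounted in this way.

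By step, CCAAT lay near the summit in 6 of 7 mevalonate promoters, 6 of 8 from squalene to cholesterol and 4 of 6 in the fatty acid branch, and in 2 of 5 genes of SREBP control, SREBF2 and INSIG1 (40%, 11.8 to 76.9%), a share near that of all promoter peaks. The 8 members without one were PMVK, CYP51A1, TM7SF2, SREBF1, SCAP, INSIG2, ACSS2 and FADS2. Promoter peaks with fewer tags at TM7SF2 (56 tags at −11 bp) and SREBF1 (22 tags at −237 bp) did hold 1. That of TM7SF2 was the more enriched by fold (15.18 against 9.29 at the peak described) and by highest SOX9 signal (36 against 26). In the windows 1 kb to either side of the summits, CCAAT was found in 31.5% of the member windows and Motif 1 in 1.85%. For all promoter peaks these shares were 21.9% and 1.37%. Without regard to peaks, the 200 bases before the gene start held CCAAT in 16 of all 31 members (51.6%) and 29.2% of protein-coding genes, and Motif 1 in 12 (38.7%) and 10.1%.

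The number of CCAAT copies did not order the tags within the group. Members without CCAAT had a median of 63 tags and a range from 36 to 353. With 1 and 2 copies the medians were 85 and 65. Members with 3 or more copies had a median of 84 and a range from 57 to 196. Among all promoter peaks the medians rose from 56 without CCAAT to 58, 73 and 97 with 1, 2 and 3 or more. Members that went against that order included PMVK (353 tags, none) and LSS (18 tags, 2 copies). The median fold enrichment did rise with the copies, from 9.4 at members without CCAAT to 10.2, 13.81 and 22.44. Over all promoter peaks it rose from 9.51 to 10.27, 14.22 and 19.29.

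Copies of CCAAT were sought only within 100 bp of the summits, which themselves lay mainly upstream of the TSS. The 43 copies found there at the members included 41 upstream of the TSS, with a median of −87 bp. Of the 43, 17 had CCAAT on the strand of the gene and 26 on the other. No such counts are given for all promoter peaks. Neighbouring copies were a median of 42 bp apart, and 20 of 24 gaps (83.3%) were between 25 and 65 bp. Over all promoter peaks the median gap was 40 bp, and 69.9% of gaps were in that range. The copy nearest to the summit lay a median of 22 bp from it, and at 16 of 19 members (84.2%) within 50 bp. For all promoter peaks with CCAAT this distance was 23 bp, and 75.4% had it within 50 bp.

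Sterol regulatory element strings were rarer than CCAAT. TCACNCCA lay within 100 bp of the summit at 4 members, HMGCS1, PMVK, FDFT1 and MSMO1, against 1.85% of all promoter peaks. Within the whole peak interval it was found at 11 of 27 members (40.7%), against 11.9% in general. These included the same 4 with MVK, SQLE, TM7SF2, SREBF2, SCAP and ACSS2. Member intervals were slightly wider (median 976 and 926 bp), and the number of copies per kb of interval was 0.463 for the members and 0.127 for all promoter peaks. The stricter TCACCCCAC was in no member window, but it was in the interval of SREBF2, where its core lay −107 bp from the summit and 19 bases from a CCAAT. The SRE-like string was 34 bases from the nearest CCAAT in HMGCS1, 17 in FDFT1, 9 in MSMO1 and 10 in MVK, where it lay 348 bp downstream of the TSS. It was far from CCAAT in TM7SF2 (125 bases) and SQLE (240), and at a second copy in the MSMO1 interval (281). At PMVK, SCAP and ACSS2 no CCAAT was present in the interval.

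The other strings were counted in the same windows. The GC box GGGCGG was found at 19 members (70.4%), as many as had CCAAT, with 62.7% in all promoter peaks, and all 5 genes of SREBP control had at least 1. The E-box CACGTG, a string that SREBPs can also bind, lay near the summit of MVK, SC5D, SREBF1 and SCAP, 4 of 27 against 8.5%. The ETS core CCGGAAG was present at CYP51A1 and INSIG2 only, 2 of 27 against 18.2%. Motif 2, the SOX9 consensus string, was found at FDFT1 alone, 1 of 27 against 7.03%. All strings were searched on both strands, and a match shows only that the letters are there.

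The local amount of DNA differed between members. The input signal of the 1 Mb around each summit, relative to the median autosomal window, ranged from 0.3 at FDFT1 to 4.02 at SQLE. It was above 1.5 at 5 members, SQLE (4.02), ACACA (2.22), ACSS2 (1.92), TM7SF2 (1.77) and FADS2 (1.58), and lowest at FDFT1, MSMO1 (0.53) and LSS (0.61). When tags were divided by this level, SQLE fell to 79.6, near MVK (77.8), and ACACA to 66.1. FDFT1 rose to 235 and MSMO1 to 137, and PMVK remained first at 303. The median was 75.8 for the members and 53.3 for all promoter peaks. By step it was 119 for the mevalonate genes, 77.7 from squalene to cholesterol, 57.3 in SREBP control and 44.7 in the fatty acid branch, the last below the median of all promoters. The part of DNA amount in the tags was not tested. ACSS2, at an input level of 1.92, had 58 tags, and FDFT1, at 0.3, had 71. In the other direction, SQLE, at 4.02, had 320 tags, and LSS, at 0.61, had 18.

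Other genes of sterol and fatty acid metabolism gave a similar share of occupied promoters. Of 32 such genes, listed with earlier results known, 26 (81.2%) had a promoter peak, against 44.9% of all protein-coding genes. Their median was 54.5 tags, below the 59 of all promoter peaks. CCAAT lay near the summit at 13 of the 26 (50%, 32.1 to 67.9%), against 32.2% of all promoter peaks. POR encodes the electron donor of microsomal P450 enzymes and squalene epoxidase. Its peak was the strongest, with 332 tags (297 to 370), 77.89-fold enrichment, a summit at −23 bp and a highest SOX9 signal of 237 against 9. It was followed at a distance by the sterol reductase gene LBR (108 tags), HSD17B12 (104), which acts in fatty acid elongation, the sterol dehydrogenase gene NSDHL (92), the elongase gene ELOVL1 (89), and MYLIP and the oxysterol receptor gene NR1H2 (87 each). HSD17B12 had TCACCCCAC within 100 bp of its summit. No promoter peak was called at SOAT1, ACACB, ELOVL5, SCD5, MLXIPL and CYB5R3.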

How the data were processed

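SOX9 ChIP and input DNA of HT-29 cells were sequenced as 50-nt reads, with 1 library each. The submitters' processing notes name BWA as the aligner (version not given in the sources used here) and hg19 as the build. The authors dropped duplicates and reads without a unique place, reduced the input to the number of SOX9 alignments, and called 17847 peaks with MACS (p cut-off 1e-07, band width 150). In the deposited peak table the tags are counts, the score is the negative log10 p times 10, the fold enrichment is a ratio over the local input, and the FDR is a percent. The deposited signal maps give the number of tags, extended to 150 bp, per 32-nt bin, with both libraries at 12320108 tags and no other scaling. These values were used as deposited. A list of the same peaks as intervals was not used, and NF-YA data were not analysed here.

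Summits (start + summit − 1) were placed on the 254376 transcripts of GENCODE release 44 on GRCh37, whereas the authors used RefSeq. A gene's promoter peak is the one with the most tags among those within 1 kb of any of its TSSs. Strings were looked for on either strand, in the 100 bp to each side of a summit, and bases in UTRs were not printed. A further sequence of the interval search is not reported here. Intervals are exact Poisson (tags) or Wilson (shares), at 95%, and cover counting error only. The members, the gene lists and the strings were chosen with earlier results of these data known, and no test was made, since a gene list chosen on these libraries and 1 library per condition allow none. Named are all members and, of the other pathway genes, the 6 with the most tags (7 with a tie) and those without a peak. Alternatives were another reach or set of TSSs, a score of at least 100, the interval midpoint, other windows and strings, and other measures of tags and signal. As a check of the code only, strings planted in random sequence were found in 100% of cases. The stricter TCACCCCAC was not planted. Summits planted around annotated TSSs were placed, or left out beyond 1 kb, correctly in 100%. Python 3.11.15, NumPy 2.4.6, pandas 2.3.3, SciPy 1.17.1, pysam 0.24.0 and matplotlib 3.10.9 were used. The labels give DMEM as the medium, the methods McCoy's medium.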

Additional observations from a re-analysis of the deposited data

How the results depend on the processing

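The 8 results were recomputed under 31 alternatives, and 27 of these stayed close to the reported value. Close meant within a factor of 1.5 for counts and signal ratios, a wide limit. For tags it meant within the Poisson interval of the reported median, and for the summit position within 32 bp. Only the member value was judged, not its difference from all genes. The count of members with a promoter peak ranged from 22 (annotated gene start only, 38.1% of all protein-coding genes) to 28 (3 kb, 47.6%). That of members with CCAAT ranged from 16 (50 bp, 23.8% of all promoter peaks) to 22 (whole interval, 63.5%). In the whole interval members and all promoter peaks were thus closer than within 100 bp (19 members, 32.2%). The median tags ranged from 73 to 84, the latter without members whose local input was over 1.5 times above or below the autosomes, an alternative chosen after seeing the data (19 members remained, all genes 57). The SRE-like count moved from 4 to 2 within 50 bp (0.808% of all promoter peaks), to 11 in the whole interval (11.9%) and to 0 with TCACCCCAC (0.199%). The median summit moved from −84 to −22 bp when only the annotated gene start was used (8 bp for all genes). No paired analysis was possible because each condition has 1 library. With 18 tags at LSS and 36 at SCAP, counting error alone is wide at the weakest members.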

Other observations

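Apart from a gene's own promoter peaks, 23 peaks lay in a member gene or within 10 kb of it, at 14 members. Of these, 8 were at the TSS of another gene, with the FADS2 promoter peak near FADS1 among them, and 15, at 9 members, were away from any TSS of a protein-coding gene, 8 of them inside the member. Their median was 49 tags, and 37 for all 9192 peaks over 1 kb from every TSS of a protein-coding gene. CCAAT was within 100 bp of the summit in 3 of the 15 and Motif 2 in 2 of them, those at INSIG2 (85 tags, −2545 bp, 2 copies) and STARD4 (29 tags, 3216 bp). Over all peaks away from TSSs these shares were 22.5% and 32.7%.

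The one with the most tags was downstream of SCD, the stearoyl-CoA desaturase gene, whose promoter peak was low. Behind this gene lay peaks of 39, 84 and 125 tags, 17818, 24196 and 26241 bp from the nearest TSS of SCD. The peak with 125 tags (chr10:102132710-102134254) had a fold enrichment of 20.07, a SOX9 signal of 42 against 5 and 2 copies of CCAAT. ELOVL6, which had no promoter peak, held 3 peaks of 55, 25 and 40 tags inside the gene, none with CCAAT or Motif 2. LPIN1, also without a promoter peak, held 2 inside the gene, with 49 and 22 tags, and 1 downstream with 59.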
